A study of Homo sapiens with 5 samples.

Results

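SR proteins and heterogeneous nuclear ribonucleoproteins (hnRNPs) are the abundant RNA-binding proteins that decide which splice sites of a pre-mRNA are used. Genes of these families were taken from the authors' deposited table by name, as symbols that start with SRSF followed by a number or with HNRNP followed by a letter. The name pattern matched 38 rows, of which 5 pseudogenes and 1 antisense RNA were set apart. The remaining 32 genes, 11 SR protein genes and 21 hnRNP genes, are described here among 11976 measured genes. SRSF12 was not analysed here. All but 2 of the 32 genes had a mean of at least 5 log2 CPM, the log2 of counts scaled to library size, the exceptions being HNRNPUL2 and HNRNPA1L2.

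The libraries came from HUDEP-2, a human erythroid cell line that was immortalised from cord blood progenitors. The series held 3 libraries labelled ERF knockout and 2 labelled wild type, whose titles carry the letters SCR with no explanation. ERF is an ETS-family transcriptional repressor. The labels do not say whether the edited cells were 1 clone or a pool, or at which culture stage the RNA was taken. The name of the authors' deposited table holds the word Pre, which may refer to a stage and is not explained. Values exist only as the authors' own comparison, with no value per library, so levels by sample and depth by library are unknown. Each log2 fold change, mean log2 CPM, F statistic and adjusted p printed below is a value of the authors' deposited table, with the sign set as described next; SEs and intervals were derived from it. Whether libraries of a group were separate cultures is not stated, so every p-value below comes from 5 libraries that may be technical repeats. The t distribution used for the intervals has 10.34 degrees of freedom, more than the number of libraries. The p-values and intervals therefore do not rest only on how each gene varied among these libraries. How much of the variance estimate was shared across genes is not stated.

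No header names the reference group of the comparison. Following the series title, the fold change of the γ-globin gene HBG2 (1.88 ± 0.22 on the log2 scale, with the standard error, SE, as the error throughout) was taken as positive in the libraries labelled knockout, which multiplied every value of the authors' deposited table by -1. Under this direction the RNA of ERF itself was higher, not lower, in the libraries labelled knockout, at 0.89 ± 0.07 (SE). The label gives a genotype and no RNA level, so the RNA of ERF does not settle the direction. If the direction is read the other way, every "higher" below becomes "lower" and the reverse. As a check of the labelled cell type, 18 of 18 erythroid markers were measured, and 5 of 21 markers of other blood and stromal lineages. The first group stood between 6.90 and 12.48 log2 CPM, with 10 markers higher (55.6%) and 0 lower in the authors' deposited table. At an unadjusted p below 0.05 the counts were the same. Among all genes 24.9% were higher and 25.9% lower, and among those at 7 log2 CPM or more 32.6% and 23%. The part of these markers in the results below was not tested. Of the other group, ITGA2B (7.26 log2 CPM), PTPRC (5.95), SPI1 (4.39), LYZ (0.48) and PRG2 (0.28) were measured, ITGA2B above the lowest erythroid marker, SLC4A1, and 0 of the 5 passed the deposited F test, also at an unadjusted p below 0.05.

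SR proteins carry RNA recognition motifs and a tail rich in arginine and serine; most bind exonic enhancers and recruit U1 snRNP and U2AF to weak splice sites. Kinases of the SRPK and CLK families phosphorylate this tail and control where the proteins reside. Many hnRNPs bind exonic or intronic silencers and oppose SR proteins, so the ratio of both families sets the inclusion of many exons. Several genes of both families limit their own output by splicing in an exon that sends the transcript to nonsense-mediated decay. In erythroid cells, splicing changes widely during terminal maturation.

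Promoter sequence is shown for 5 genes because ERF belongs to the ETS family, which binds a core of GGAA. These genes include higher and lower ones, but none that missed the threshold described below. Windows hold the 250 bases before an annotated start in RefSeq (build GRCh38.p14), written 5′ to 3′ on the strand of the gene. SRSF1, with the highest fold change of all members, lies on the minus strand (chr17:58007247-58007496). SRSF4 (chr1:29181901-29182150, minus strand) and SRSF5 (chr14:69766892-69767141, plus strand) were higher and hold an ETS match. HNRNPM (chr19:8444725-8444974, plus strand) had the highest fold change of the hnRNP genes and holds an E-box. HNRNPLL (chr2:38602929-38603178, minus strand) was lower and holds an ETS match. Capitals mark CCGGAAG or its reverse complement (the ETS match, longer than the core GGAA) and CACGTG (an E-box, the site of MYC-type factors).
SRSF1: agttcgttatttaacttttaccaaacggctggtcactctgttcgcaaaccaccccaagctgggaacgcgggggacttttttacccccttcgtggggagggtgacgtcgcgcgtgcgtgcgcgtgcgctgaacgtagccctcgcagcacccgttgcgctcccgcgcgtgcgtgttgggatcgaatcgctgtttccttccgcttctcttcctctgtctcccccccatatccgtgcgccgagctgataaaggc
SRSF4: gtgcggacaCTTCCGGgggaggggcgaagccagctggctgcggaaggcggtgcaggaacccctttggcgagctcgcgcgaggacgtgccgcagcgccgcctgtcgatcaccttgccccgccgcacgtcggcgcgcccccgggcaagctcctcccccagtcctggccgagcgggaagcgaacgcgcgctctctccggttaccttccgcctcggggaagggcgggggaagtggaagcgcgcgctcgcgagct
SRSF5: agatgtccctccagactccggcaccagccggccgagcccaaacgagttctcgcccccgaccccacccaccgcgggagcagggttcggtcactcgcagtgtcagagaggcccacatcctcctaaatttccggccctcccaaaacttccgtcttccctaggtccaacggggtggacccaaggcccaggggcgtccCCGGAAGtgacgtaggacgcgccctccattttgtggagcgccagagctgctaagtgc
HNRNPM: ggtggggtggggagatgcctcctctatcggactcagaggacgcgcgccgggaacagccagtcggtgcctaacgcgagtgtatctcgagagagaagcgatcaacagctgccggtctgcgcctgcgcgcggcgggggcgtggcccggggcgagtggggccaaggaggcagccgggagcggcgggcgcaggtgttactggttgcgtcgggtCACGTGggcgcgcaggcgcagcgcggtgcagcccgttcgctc
HNRNPLL: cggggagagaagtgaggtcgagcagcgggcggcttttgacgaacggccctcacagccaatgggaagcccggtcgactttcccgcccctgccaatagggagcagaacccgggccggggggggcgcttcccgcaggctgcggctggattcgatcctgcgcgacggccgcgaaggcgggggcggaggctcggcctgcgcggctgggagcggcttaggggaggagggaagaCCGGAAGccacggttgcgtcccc
CCGGAAG thus occurs, on either strand, in windows of genes that were higher and in that of HNRNPLL, which was lower. HNRNPD and HNRNPF, not shown here, hold it too and did not pass the deposited F test (adjusted p = 0.0776 and 0.692). The window of SRSF1 holds neither CCGGAAG nor CACGTG, though the shorter GGAA occurs in it.

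Over the 30 of 32 genes with an entry, 44 windows were searched on both strands, with several starts for some genes, whose windows can overlap and hold the same match. No entry matched SRSF2 or HNRNPA1. CCGGAAG was found in 5 windows (11.4%), those of SRSF4, SRSF5, HNRNPD, HNRNPF and HNRNPLL, against 15% of the 12337 windows found for 8477 of the 11976 measured genes and 8.52% of all 35116 windows. CACGTG, which reads the same on both strands, was found in 7 windows (15.9%) against 8.7% for these measured genes and 6.34% for all windows. The CCAAT box, the site of NF-Y, was found in 21 windows (47.7%) against 33.2% and 32%. TGATGNAA, the composite element bound by ATF4, was found in 0 windows, against 1.56% and 3.14%. Matches of different motifs shared bases in 0 cases. A match describes letters in these windows and shows no binding.

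Most of these splicing regulators were higher in the libraries labelled knockout, by small amounts. Of the 32 genes, 19 were higher at an adjusted p below 0.05, 3 were lower and 10 did not pass the test in the authors' deposited table. Of all genes measured, 50.9% passed, with 24.9% higher and 25.9% lower. Because these genes are abundant, genes with a mean of at least 7 log2 CPM give a closer background, of which 55.7% passed, with 32.6% higher and 23% lower, a cut chosen after the data had been seen. The median log2 fold change was 0.18 over the 32 genes, -0.0019 over all genes and 0.04 over genes of at least 7 log2 CPM. None of the 32 genes changed by 2-fold or more. Together they held 1.63% of the CPM of all genes, 0.273% in SR protein genes and 1.36% in hnRNP genes.

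**Figure D1:**
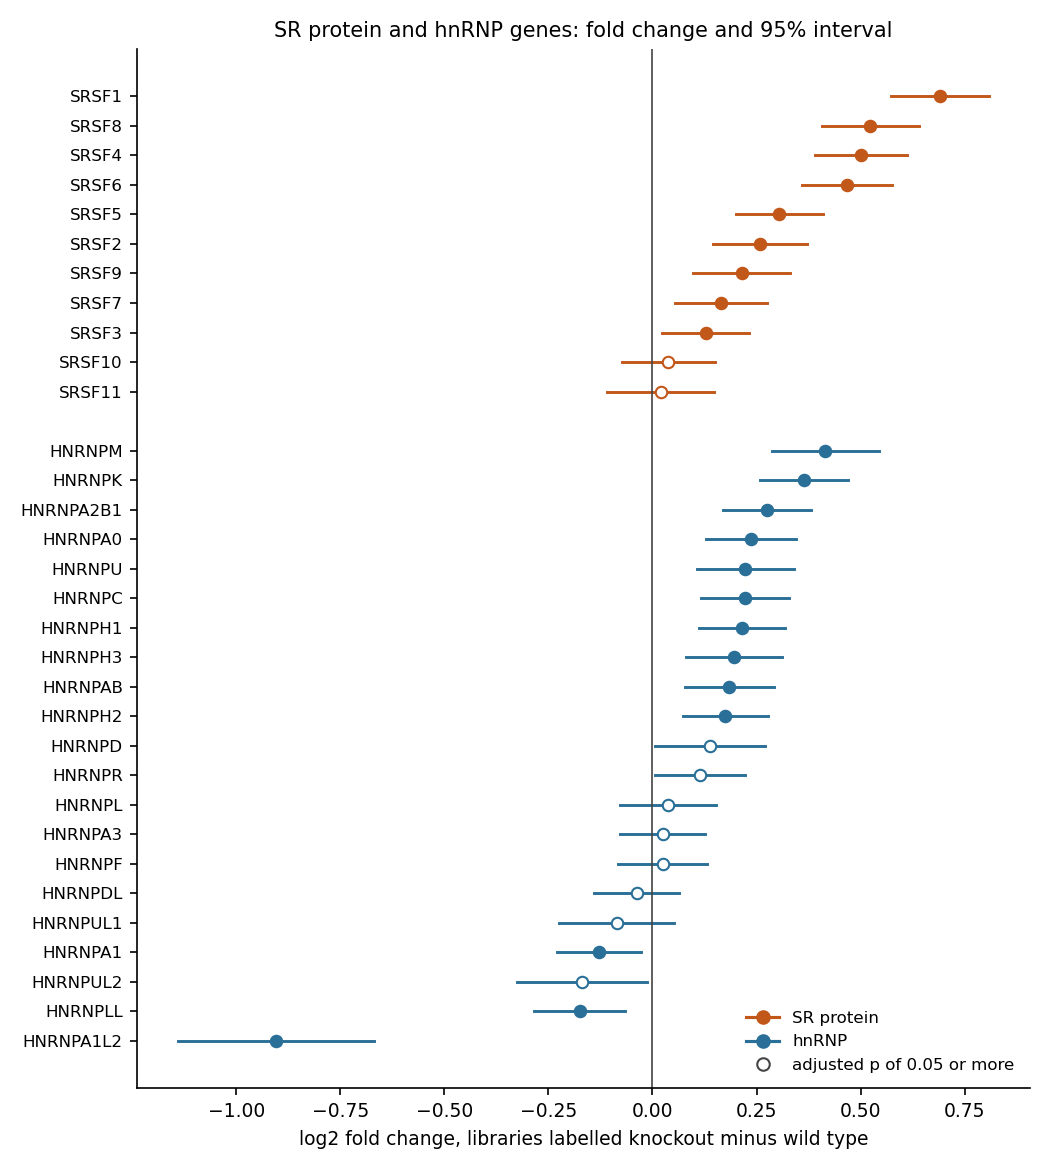
Log2 fold change (x axis, libraries labelled knockout minus wild type) of each SR protein gene (orange) and hnRNP gene (blue), with bars for the 95% interval derived from the F statistic; open circles had an adjusted p of 0.05 or more. All 11 SR protein estimates lie above 0, from 0.02 for SRSF11 to 0.69 for SRSF1, while the hnRNP estimates run from -0.90 for HNRNPA1L2 to 0.42 for HNRNPM.

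SR protein genes leaned one way. In the authors' deposited table, 9 of 11 were higher, 0 lower and 2 missed the threshold of the deposited F test, and 0 were lower at an unadjusted p below 0.05 too. The median log2 fold change was 0.26. SRSF1 (ENSG00000136450, chromosome 17), the founding member, which promotes exon inclusion and also acts in export and translation, was 1.61-fold higher, at 0.69 ± 0.05 (SE), with 95% limits of 0.57 and 0.81 (adjusted p = 4.88e-06). By its F statistic it ranked 231 of 11976 genes. Its interval did not overlap that of SRSF9, a shorter relative, which was 1.16-fold higher at 0.21 in the authors' deposited table (interval 0.10 to 0.33).

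The related long SR proteins SRSF4 and SRSF6 came next in size together with SRSF8. SRSF8, a retrogene that arose from SRSF2, was 1.44-fold higher, at 0.52 ± 0.05 (SE; adjusted p = 2.91e-05). For SRSF4, the authors' deposited table gave 0.50 ± 0.05 (SE), or 1.41-fold (adjusted p = 2.72e-05). SRSF6 stood at 0.47 ± 0.05 (SE), or 1.38-fold (adjusted p = 3.68e-05). The intervals of these genes overlapped one another, and that of SRSF1 overlapped all 3 of them. SRSF5, of the same subgroup as SRSF4 and SRSF6, had a smaller rise of 1.23-fold, at 0.30 (adjusted p = 0.000437).

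SRSF2, a splicing factor of nuclear speckles that is recurrently mutated in myelodysplastic syndromes, was 1.20-fold higher, at 0.26 ± 0.05 (SE; adjusted p = 0.00187). Its retrogene SRSF8 had the larger fold change, with an interval (0.41 to 0.64) that did not overlap that of SRSF2 (0.15 to 0.37). Reads that fit both genes may be split between them or left out, and SRSF2 shares exonic bases with MFSD11 (below). The contrast of SRSF8 and SRSF2 is therefore uncertain. SRSF3 and SRSF7, closely related proteins that also couple splicing to export through NXF1, were 1.09-fold and 1.12-fold higher, at 0.13 and 0.17 in the authors' deposited table (adjusted p = 0.042 and 0.0182). These were the smallest called changes among SR protein genes. SRSF3 was no longer called when fold changes were centred on the genes at 5 log2 CPM or more (0.09, adjusted p = 0.119).

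Both members not past the threshold are atypical. SRSF10, which acts as a general repressor of splicing once dephosphorylated, stood at 0.04, with 95% limits of -0.07 and 0.15 computed from the authors' deposited table. SRSF11, an SR-related protein, stood at 0.02, with limits of -0.11 and 0.15, at a mean of 8.25 log2 CPM. Both upper limits lie near 0.15. The interval of SRSF4 did not overlap that of SRSF11.

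The hnRNP genes were less uniform in sign. In the authors' deposited table, 10 of 21 were higher, 3 were lower and 8 missed the threshold. Their median log2 fold change was 0.14. Whether the shares called differ between both families was not tested. HNRNPM (ENSG00000099783, chromosome 19), an RNA-binding protein that regulates many alternative exons, was 1.33-fold higher, at 0.42 ± 0.06 (SE; adjusted p = 0.000228). HNRNPK (ENSG00000165119, chromosome 9), which binds C-rich RNA and DNA through KH domains and in erythroid precursors represses translation of ALOX15, was 1.29-fold higher, at 0.36 ± 0.05 (SE; adjusted p = 1.60e-04).

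Of the 6 hnRNP genes of the A/B group, 3 rose, 2 fell and 1 missed the threshold. HNRNPA2B1, a splicing repressor that also sorts RNA for transport, was 1.21-fold higher, at 0.28 ± 0.05 (SE; adjusted p = 0.000852). HNRNPA0 stood at 0.24 and HNRNPAB at 0.18, both called higher. HNRNPA3 was not past the threshold at 0.03, with an interval of -0.08 to 0.13. HNRNPA1 (ENSG00000135486, chromosome 12), the best-known antagonist of SRSF1 at splice sites, was 1.09-fold lower, at -0.13 ± 0.05 (SE; adjusted p = 0.0361). Its interval of -0.23 to -0.03 did not overlap those of HNRNPA2B1 (0.17 to 0.38) and HNRNPAB (0.08 to 0.29). HNRNPA1 was thus lower while SRSF1 was higher, and the ratio of both was not tested.

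HNRNPA1 had the highest level among the 31 members with an annotated length, at 8.94 log2 CPM per kilobase of exon, ahead of HNRNPK at 7.10 on the same scale. RefSeq lists 75 pseudogenes named after HNRNPA1, more than after any other member, followed by HNRNPA3 with 17 and HNRNPC with 9. Reads that fit several copies were held in a row of the authors' deposited table for alignments that are not unique, so these values are uncertain. HNRNPA1L2 (ENSG00000139675, chromosome 13), a retrocopy of HNRNPA1 that is annotated as coding, was 1.87-fold lower, at -0.90 ± 0.11 (SE; adjusted p = 7.75e-05). It was the only member called with a mean below 5 log2 CPM, at 2.62, and reads from HNRNPA1 and HNRNPA1L2 may be split between them.

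**Figure D2:**
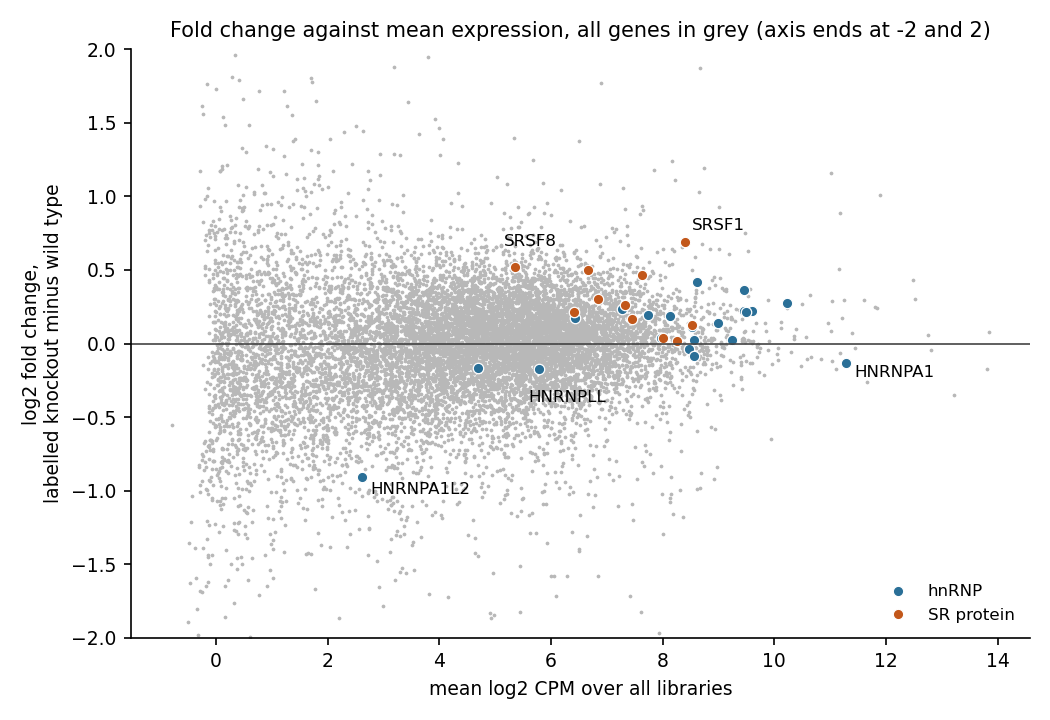
Log2 fold change (y axis, libraries labelled knockout minus wild type) against mean log2 CPM over all libraries (x axis), with SR protein genes in orange, hnRNP genes in blue and all other genes in grey; 49 genes lie beyond the plotted range. Most members sit above 0 at 6 log2 CPM or more, whereas HNRNPA1L2 at 2.62 log2 CPM, HNRNPLL and HNRNPA1 lie below 0 and were called. HNRNPUL2, HNRNPUL1 and HNRNPDL also lie below 0, without a call.

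The F/H group, whose members bind runs of G, had 3 of 4 members called higher. HNRNPH1 was 1.16-fold higher at 0.22 in the authors' deposited table, HNRNPH3 stood at 0.20 and HNRNPH2 at 0.17, with adjusted p-values of 0.00317, 0.00994 and 0.00931. HNRNPF stood at 0.02, with an interval of -0.08 to 0.13 that overlapped those of HNRNPH1 (0.11 to 0.32), HNRNPH2 (0.07 to 0.28) and HNRNPH3 (0.08 to 0.31). A difference between HNRNPF and its relatives is therefore not shown. HNRNPC, which binds U-tracts and guards against the use of cryptic Alu exons, was 1.17-fold higher at 0.22 in the authors' deposited table (adjusted p = 0.00311).

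In the U group, HNRNPU, the scaffold attachment factor A that binds chromatin and RNA, was 1.17-fold higher at 0.22 in the authors' deposited table (adjusted p = 0.00523). Its relatives HNRNPUL1 (-0.09, adjusted p = 0.268) and HNRNPUL2 (-0.17, adjusted p = 0.0665) were not past the threshold. The interval of HNRNPU did not overlap that of either. HNRNPUL2 was called lower (-0.20, adjusted p = 0.033) when fold changes were centred on the genes at 5 log2 CPM or more.

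The L group had no member that rose. HNRNPLL, known for switching CD45 exons in activated T cells, was 1.13-fold lower, at -0.17 ± 0.05 (SE; adjusted p = 0.0129). HNRNPL, which binds CA repeats, stood at 0.04 with an interval of -0.08 to 0.15, and the intervals of both overlapped. In the D group, which binds AU-rich elements and regulates decay, HNRNPD stood at 0.14 (adjusted p = 0.0776) and HNRNPDL at -0.04 in the authors' deposited table. HNRNPR, a relative of SYNCRIP, stood at 0.11 (adjusted p = 0.0724). The unadjusted intervals of HNRNPD (0.01 to 0.27) and HNRNPR (0.01 to 0.22) lay just above 0, while their adjusted p missed the threshold. That of HNRNPUL2 (-0.33 to -0.01) lay just below 0, with an adjusted p that also missed it. At an unadjusted p below 0.05 of the deposited F test, 12 hnRNP genes were higher and 4 lower.

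Many of these genes also share an annotation feature that the name rule did not use. In GENCODE 29, which held 31 of the 32 genes by identifier (SRSF8 had no match), all 10 matched SR protein genes list at least 1 transcript of the nonsense-mediated decay type, with a median of 2. Among hnRNP genes 13 of 21 do (61.9%), and 45.6% of 10641 measured protein-coding genes do. At 7 log2 CPM or more the share was 49.3% of 1232 protein-coding genes. SRSF7 lists 6 such transcripts, SRSF1 lists 3 and HNRNPU lists 9. Retained-intron transcripts were listed for 22 of the 31 genes (71%), close to the 71.5% of protein-coding genes of at least 7 log2 CPM. A gene-level value sums productive and decay-prone transcripts, so their shares are not resolved by these data.

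Some values may hold reads of a neighbour or lack those from shared bases. The labels and headers do not state whether counting used strand. A row of the authors' deposited table for ambiguous reads held 8.17% of the CPM of all rows. In GENCODE 29, 7 of the 31 matched genes share exonic bases with another measured gene, all on the opposite strand. A further gene model that is not in the table, AC015813.2, shares 56.6% of the exonic bases of SRSF1 on the same strand, and a read-through with BSCL2 shares 44.1% of those of HNRNPUL2. Whether the annotation behind the counts held these models is not known. GATC shares 46.2% of the exonic bases of SRSF9 and was itself higher (0.24, adjusted p = 0.0429). MFSD11 shares 36.7% of those of SRSF2 and stood at -0.51 (adjusted p = 0.00199), opposite to SRSF2. COX20 shares 15.6% of those of HNRNPU and was not past the threshold at -0.07 in the authors' deposited table. The part of these neighbours in the values was not tested.

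Partner genes of the splicing machinery were compared through lists of known factors, described by counts and medians, to be read against the 24.9% of all genes called higher and the 25.9% called lower. Kinases of SR proteins, nuclear importers and phosphatases numbered 17, of which the authors' deposited table calls 6 higher and 0 lower, at a median of 0.05; at an unadjusted p below 0.05, 7 were higher and 0 lower. The share of 35.3% higher is near the 31.8% among genes at 5 log2 CPM or more and the 32.6% at 7 or more. This list had a median of 6.31 log2 CPM. CLK3, a nuclear kinase of SR proteins, was 1.67-fold higher at 0.74, PRPF4B stood at 0.42 and SRPK1, the main cytoplasmic kinase, at 0.34. In SR-related coactivators, 12 of 22 rose and 3 fell, and the median of 0.18 equalled that of the 32 members to this precision. SAFB and SAFB2, scaffold attachment factors, stood at 0.78 and 0.61 and SON, a speckle scaffold, at 0.45. Those that the authors' deposited table calls lower were TRA2A (-0.25), PNISR (-0.23) and LUC7L3 (-0.14).

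**Figure D3:**
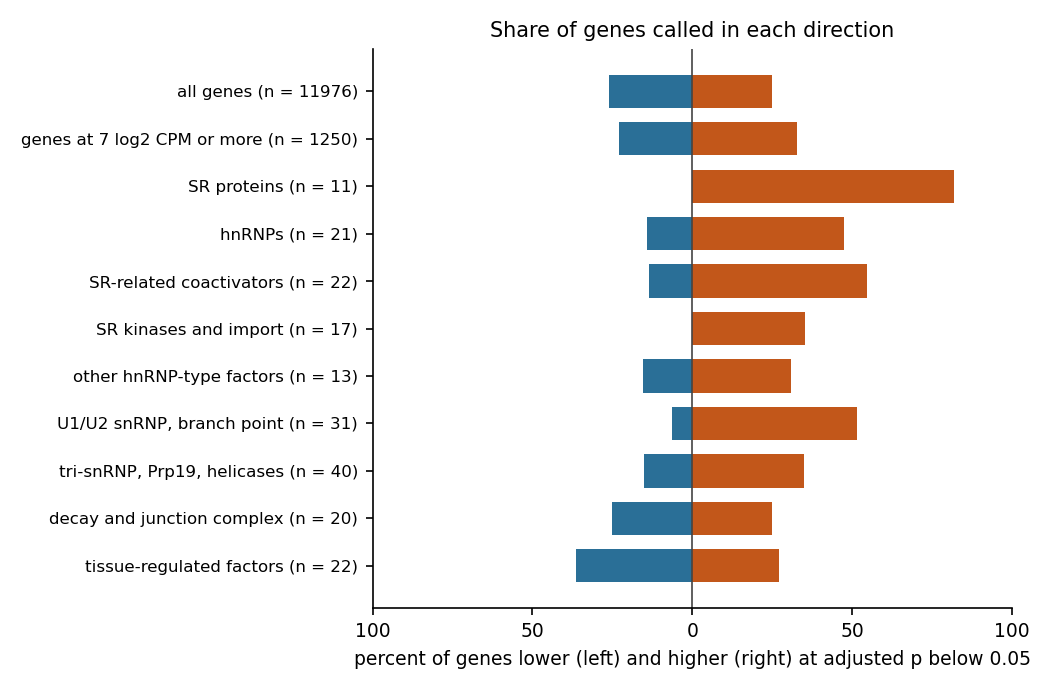
Percent of genes called lower (blue, to the left) and higher (orange, to the right) at an adjusted p below 0.05 in each set (y axis, with the number measured). The SR protein bar reaches 81.8% higher and 0% lower, the hnRNP bar 47.6% and 14.3%, against 24.9% and 25.9% for all genes.

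Splicing factors of the hnRNP type that carry other symbols were mixed: 4 of 13 rose (30.8%) and 2 fell (15.4%), at a median of 0.08. Their median expression was 7.67 log2 CPM. The share higher is near the 32.6% among genes at 7 log2 CPM or more, of which 23% were lower. PTBP1 (hnRNP I), a repressor that binds pyrimidine tracts, stood at 0.38, TARDBP, which encodes TDP-43, at 0.38 and RBMXL1 at 0.41 in the authors' deposited table. PCBP2 (hnRNP E2), which binds C-rich RNA, was 1.32-fold lower at -0.40, and the cold-inducible CIRBP stood at -0.36. A further list, labelled tissue-regulated in the figures, had 22 of 33 listed symbols measured. It also holds broadly expressed factors such as SFPQ, NONO and RBM39, while RBFOX1, NOVA1, NOVA2, ESRP1 and ESRP2 were not measured. Of the 22, 6 were higher (27.3%) and 8 lower (36.4%), against 24.9% and 25.9% of all genes. The median was -0.01. MBNL2, a muscleblind protein, was 2.44-fold lower at -1.29, the one gene of all these lists that changed by 2-fold or more in the authors' deposited table. RBM5 (-0.32) and TIA1 (-0.25) were also lower, and RBM4 (0.35), ELAVL1 (0.33) and RBM38 (0.33), an erythroid splicing regulator, were higher.

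Among U1 and U2 snRNP proteins and branch point factors, the authors' deposited table calls 16 of 31 higher and 2 lower (median 0.15). U2AF2, which binds the polypyrimidine tract, stood at 0.48, the helicase DHX15 at 0.45 and SF3B4 at 0.43. SNRPN (-0.87, at 0.05 log2 CPM) and SNRPA (-0.27) were the lower ones. In the tri-snRNP, the Prp19 complex and helicases, 14 of 40 rose and 6 fell (median 0.07). That 35% is near the share higher among genes at 5 log2 CPM or more (31.8%) and at 7 or more (32.6%). Median expression in this list was 5.92 log2 CPM. The counts became 10 and 7 when fold changes were centred on the genes at 5 log2 CPM or more. SNRNP40 (0.50), PRPF4 (0.42) and SNRNP27 (0.36) were the highest and SYF2 (-0.52), PLRG1 (-0.30) and BUD31 (-0.22) the lowest called genes in the authors' deposited table. Of the nonsense-mediated decay and exon junction factors, 5 of 20 rose and 5 fell (25% each, near the 24.9% and 25.9% of all genes), at a median of 0.03. SMG8 (0.58), NCBP2 (0.38) and SMG5 (0.27) were higher, and UPF3B (-0.42), SMG9 (-0.39) and DCP1A (-0.33) lower.

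**Figure D4:**
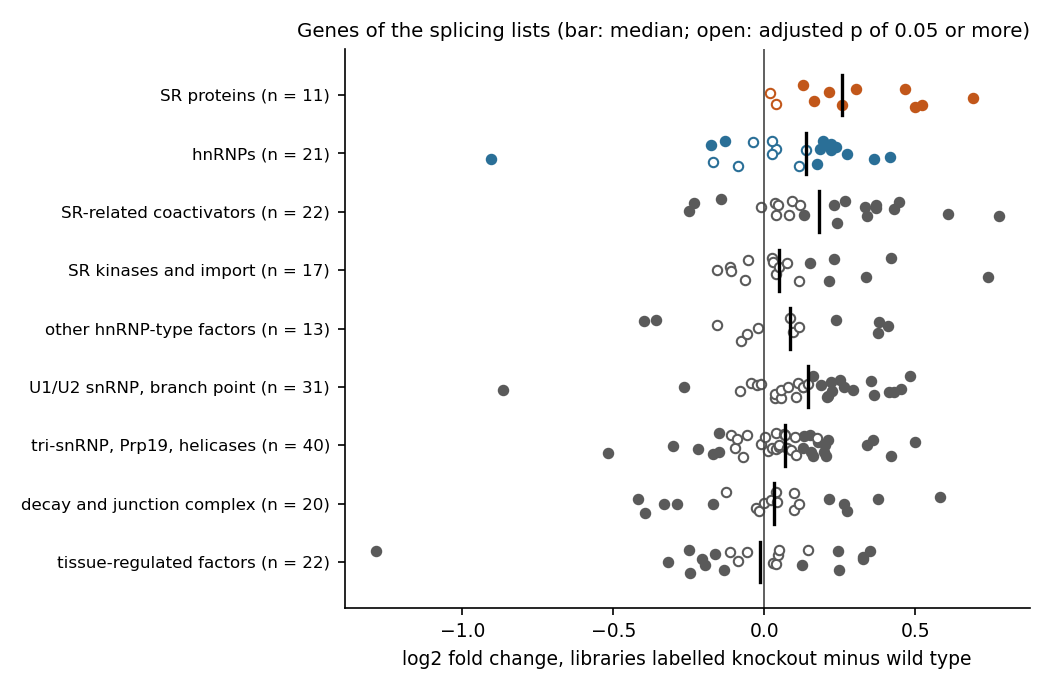
Log2 fold change (x axis) of each gene in the SR protein set (orange), the hnRNP set (blue) and the companion lists (grey), with a black bar at each median; open circles had an adjusted p of 0.05 or more and vertical scatter has no meaning. Medians run from -0.01 for the list labelled tissue-regulated, which also holds broadly expressed factors, to 0.26 for SR protein genes.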

How the data were processed

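The authors' deposited table compares wild-type and mutant HUDEP-2 cells (3 libraries labelled knockout, 2 labelled wild type). Per the file headers, the columns hold, per gene, a log2 fold change, the mean log2 CPM, an F score, and p-values before and after adjustment. Per the submitters' processing notes, edgeR 2.6.12, HTSeq, TopHat2 2.0.4, Cuffdiff and SAMtools were used with hg19/GRCh37, in roles the notes leave out. Normalization, filter and strand setting are not stated in the labels or headers. The 3 rows that name no gene (21.5% of the CPM of all rows) were left out of counts. No model was refitted. Standard errors were taken as the absolute log2 fold change over the square root of F, with 95% intervals from a t distribution whose 10.34 degrees of freedom were solved from F and p (Python 3.11.15, scipy 1.17.1). These are approximations. Genes were called at the deposited adjusted p below 0.05. Interval overlap is a description and no test of a difference. The functions were tested on simulated data. Every member is named, and up to 3 highest and 3 lowest called genes per companion list. The members and lists were chosen with earlier results of these data known, so no list test was made. Columns of per-sample values numbered 0. Alternatives were a threshold of 0.01, adjustment over gene rows only, centring on all genes or on those at 5 log2 CPM or more, and adjustment over the latter alone.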

Additional observations from a re-analysis of the deposited data

How the results depend on the processing

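No paired analysis was possible because the table holds no values per library, and leaving out each replicate was not run for the same reason. The direction rests on HBG2 alone. At an adjusted p below 0.01, members lower fell to 1 and hnRNP genes lower to 1 (HNRNPA1L2). Genes called fell to 9 in the list labelled tissue-regulated and to 9 among tri-snRNP, Prp19 and helicase genes. SRSF3, SRSF7, HNRNPA1 and HNRNPLL lost their call there, by the construction of a stricter threshold. Adjusting over gene rows alone, or centring on the median of all genes, changed no call of the 32 members. Centring on the genes at 5 log2 CPM or more shifts values by 0.03, and 3 members near 0 changed sign without a call: HNRNPA3 to -0.0091, HNRNPF to -0.0096 and SRSF11 to -0.0149. SRSF3 lost its call and HNRNPUL2 gained one. Over genes of at least 5 log2 CPM alone, with fewer genes tested, 1689 of all genes were higher and 1296 lower, and the 30 members left kept their calls. Depth by library is unknown, so no limit from counting error is given.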

Other observations

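Rows set apart by the name rule gave further values. HNRNPU-AS1, named as an antisense RNA of HNRNPU, was 1.80-fold lower, at -0.85 ± 0.08 (SE; adjusted p = 2.88e-05), whereas HNRNPU was higher at 0.22. Its identifier had no match in GENCODE 29, so an overlap of their exons was not assessed. The 5 pseudogenes measured, HNRNPA1P10, HNRNPA1P48, HNRNPA1P49, HNRNPA3P6 and HNRNPCP1, had log2 fold changes between -0.23 and 0.10 in the authors' deposited table, and none passed the test (adjusted p from 0.409 to 0.92).

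PHYKPL, which shares 9.1% of the exonic bases of HNRNPAB on the opposite strand, stood at -0.78 (adjusted p = 7.67e-06) while HNRNPAB was higher at 0.18. TGFB1, which shares 3.3% of those of HNRNPUL1, stood at 0.44 (adjusted p = 0.00193), while HNRNPUL1 was not past the threshold. RUFY2 (-0.17, adjusted p = 0.0541) and CBX3 (0.05, adjusted p = 0.497), which share 2.1% of the exonic bases of HNRNPH3 and 4% of those of HNRNPA2B1, missed the threshold in the authors' deposited table.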
